A study of Heliconius himera and Heliconius erato lativitta and Heliconius erato petiverana with 18 samples.

Results

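A list of 75 gene IDs was high in 4 wing libraries of Heliconius erato petiverana, the hindwing (HW) and forewing (FW) libraries numbered 2 and 3, and at least 4-fold lower in each of the other 14 libraries. The measure used was X, which is 1 + CPM, where CPM is the count of an ID per 1000000 gene reads of its library. An ID was taken if its lowest X in the 4 libraries was at least 10 and at least 4 times its highest X in the other 14. Of the 14612 IDs in the files, 75 (0.513%) met this rule. The rule allowed up to 150, so every ID that met it was kept and the rank decided nothing. The IDs were thus chosen by their measured CPM in all 18 libraries. Differences between these 4 libraries and the others are therefore described below without a test, and only contrasts that the rule did not use were tested. The rule did, however, set petiverana number 1 apart from numbers 2 and 3 in both wings. This widens the spread in unpaired wing tests that include number 1.

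The 18 libraries held poly-A selected RNA of whole wings on day 3 after pupation, and the animals were kept at about 27 °C. The 6 groups were petiverana HW and FW, Heliconius himera HW and FW, and H. erato lativitta HW and FW, each with 3 numbered libraries, and the labels name no treatment. Petiverana and lativitta are races of 1 species, H. himera is a close relative, and these Neotropical butterflies are known for their wing colour patterns. The labels do not say whether libraries with different numbers came from different animals or from pools, so p-values measure only the spread between these libraries.

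During pupal life the wing epithelium of a butterfly forms scale and socket cells, secretes cuticle and later makes pigment. Ecdysteroid hormones time these steps, and many genes are read for only a short interval within them. This is background to the tissue and not a result of these data. The files pair the IDs with no gene names, so no role or position is given for any ID below, and the labelled tissue could not be checked against marker genes. In whole wings, fewer cells of a type and less RNA per cell cannot be told apart.

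Libraries of 1 group did not always resemble each other. Spearman's rho across IDs between petiverana number 1 and the other libraries of its wing was 0.894 to 0.906, against 0.962 and 0.964 between numbers 2 and 3. Himera number 1 stood apart from himera numbers 2 and 3 at 0.874 to 0.880. The 10 most read IDs took 32.4% to 33.7% of gene reads in petiverana numbers 2 and 3, 30.7% to 33.6% in petiverana number 1, 30.7% to 31.9% in himera number 1 and 8.62% to 12.4% in the other 10 libraries. Reads overlapping more than 1 feature made up 0.522% to 0.581% of all reads counted in petiverana numbers 2 and 3. They made up 0.453% to 0.715% in the number 1 libraries of petiverana and himera, and 1.40% to 1.77% in the other 10. Gene reads per library were 6558388 to 8250443 in petiverana numbers 2 and 3 and 4599197 to 17002996 in the other 14. The part of these library features in the levels below was not tested.

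Together the 75 IDs took more than 20% of the gene reads in the libraries that define them and very little elsewhere. Their share was 23.5% in petiverana HW 2, 23.9% in HW 3, 21.5% in FW 2 and 24.2% in FW 3. It was 0.259% in petiverana HW 1 and 0.237% in petiverana FW 1, so the number 1 libraries of the same race and wings carried few of these reads. In himera number 1 the share was 2.68% in HW and 2.76% in FW. In the 4 libraries of himera numbers 2 and 3 and the 6 of lativitta it was between 0.0481% and 0.0696%. The 4 defining libraries lay above all others, himera number 1 came next, petiverana number 1 after that, and the last 10 libraries lay together.

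**Figure D1:**
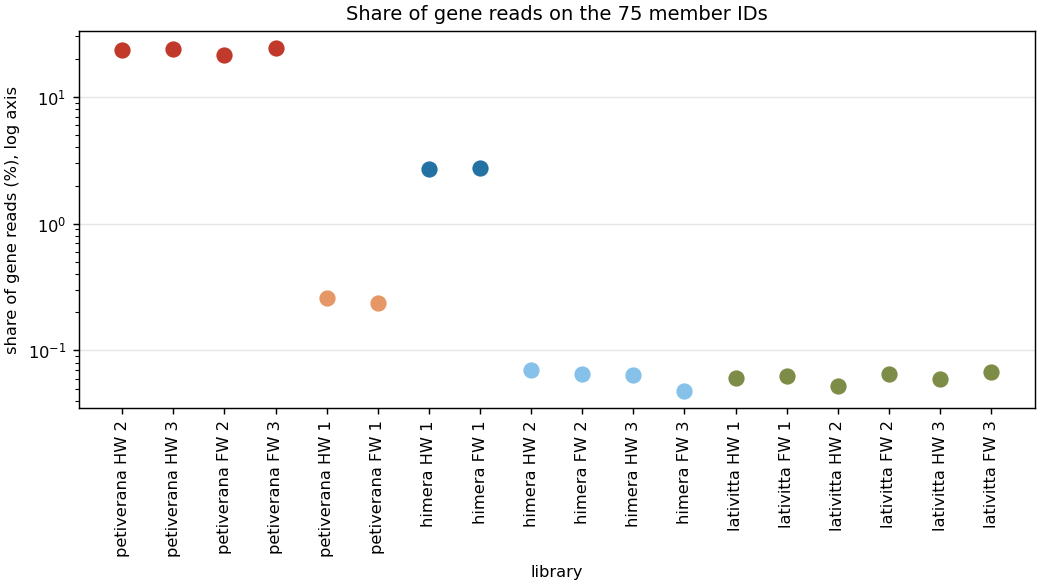
Share of gene reads on the 75 IDs, in percent on a log axis, with 1 point per library. The 4 petiverana number 2 and 3 libraries lie at 21.5% to 24.2%, himera number 1 at 2.68% and 2.76%, petiverana number 1 at 0.237% and 0.259%, and the other 10 libraries at 0.0481% to 0.0696%.

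The median ID of the list was at 284 CPM in petiverana HW 2, 359 in HW 3, 253 in FW 2 and 330 in FW 3. It was at 4.24 and 5.50 CPM in himera HW 1 and FW 1, at 1.59 and 2.15 in petiverana HW 1 and FW 1, and at 0.435 to 1.08 in the other 10 libraries. Mean CPM over the 4 libraries ran from 12.9 to 86813, with 20 IDs at 1000 or more, 35 between 100 and 1000, and 20 below 100. The rule ratio, the lowest X in the 4 libraries over the highest X in the other 14, had a median of 8.63 and a range of 4.11 to 202, with 31 IDs at 10 or more and 8 at 50 or more. CPM is not divided by gene length, so it gives an ID's share of reads and does not rank transcript levels between IDs.

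**Figure D2:**
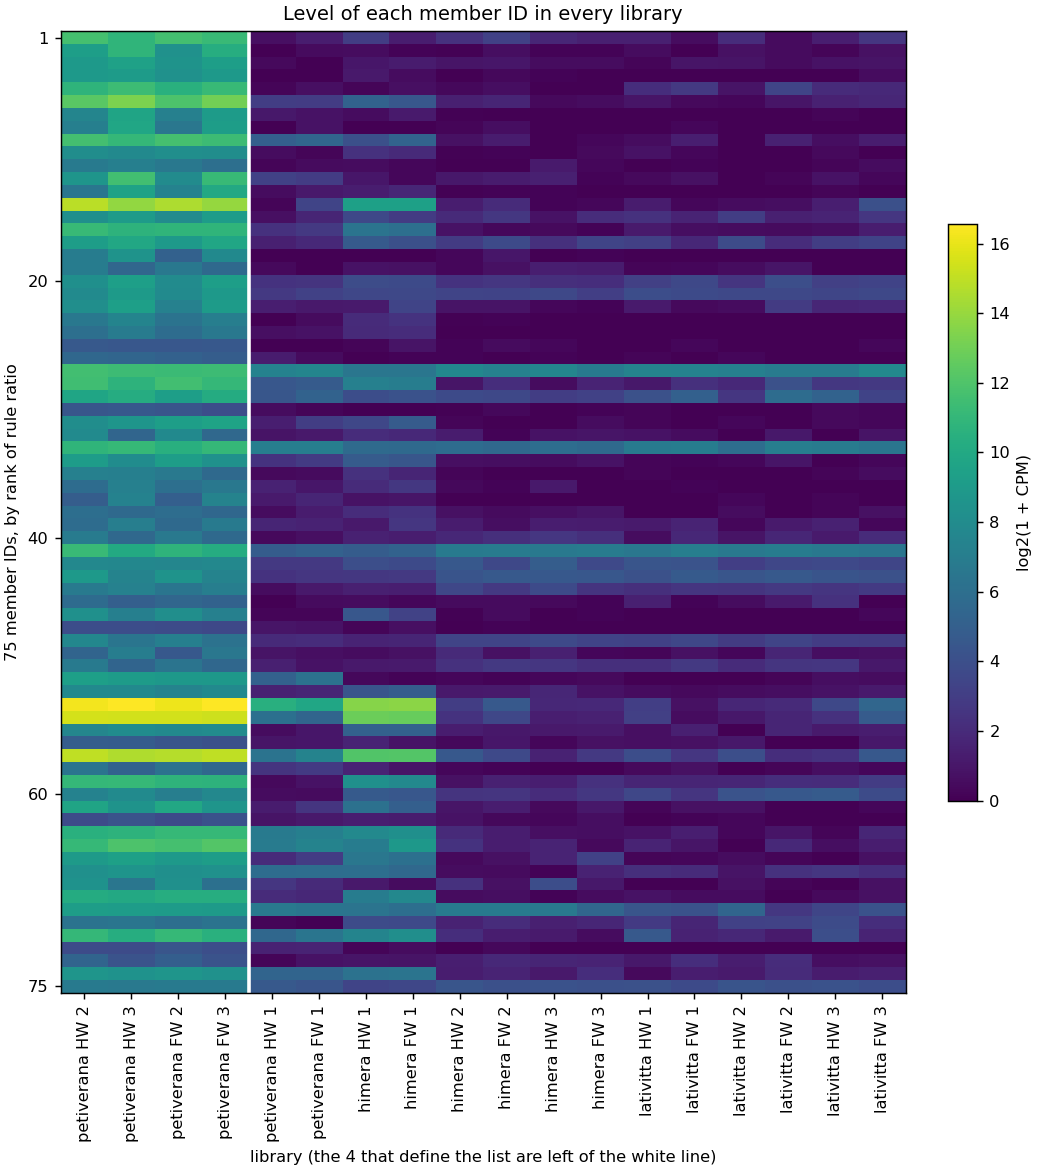
Level of each of the 75 IDs (rows, by rank of rule ratio) in each of the 18 libraries (columns), as log2(1 + CPM). The 4 petiverana number 2 and 3 libraries are left of the white line, and the himera number 1 columns show intermediate levels for some rows.

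A few IDs held most of these reads. HEL_008904 was at 78183 CPM in petiverana HW 2, 97616 in HW 3, 74438 in FW 2 and 97015 in FW 3. It was at 12333 and 13093 CPM in himera HW 1 and FW 1, 1415 and 891 in petiverana HW 1 and FW 1, and 0.658 to 43.7 in the other 10 libraries. HEL_011505 was at 46599, 44837, 43937 and 41457 CPM in petiverana HW 2, HW 3, FW 2 and FW 3, against 7343 and 6732 in himera HW 1 and FW 1. These 2 IDs made up over 50% of the list's reads in each of the 4 libraries, and 12 to 15 IDs made up 90%.

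HEL_010003 was at 31982, 24943, 27734 and 32347 CPM in petiverana HW 2, HW 3, FW 2 and FW 3, and at 4332 and 4593 in himera HW 1 and FW 1. HEL_003147 was at 29932, 15061, 24242 and 15587 CPM in the same petiverana libraries, and at 681 and 690 in himera HW 1 and FW 1. Both were at 23.1 CPM or less in the other 10 libraries, while petiverana HW 1 and FW 1 had 80.0 and 170 CPM of HEL_010003 and 0.159 and 9.56 of HEL_003147. The 4 most read IDs of the list were thus next highest in himera number 1 and not in the number 1 libraries of their own race. Among the 10 most read IDs of a library, 4 or 5 were from the list in petiverana numbers 2 and 3, 1 in himera FW 1 and 0 in the other 13 libraries.

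The IDs with the largest rule ratios were almost unread outside the 4 libraries. HEL_013093 was at 3331, 1862, 3211 and 2361 CPM in petiverana HW 2, HW 3, FW 2 and FW 3, against 0.375 to 8.20 in the other 14 libraries, a ratio of 202. HEL_004024 was at 634, 1803, 329 and 1310 CPM, against 0 to 0.652 in the others, a ratio of 199.6. HEL_013685 was at 506, 724, 369 and 621 CPM, against 0 to 1.40, and HEL_001550 at 477, 537, 328 and 483 CPM, against 0 to 1.17, with ratios of 154 and 152. Petiverana number 1 held 1.56 CPM or less of each of these 4 IDs, so its libraries lay among those of the other taxa.

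HEL_008199 had 0 reads in the most libraries, followed by HEL_004757 and HEL_014430 with the same number. HEL_008199 was at 125, 370, 34.8 and 236 CPM in petiverana HW 2, HW 3, FW 2 and FW 3, with 5460 reads there and 12 reads in the other 14 libraries, 11 of which had 0. Lativitta had 0 reads of it in 6 libraries, which allows up to 0.0844 CPM over the 6 at a floor of 3 reads. HEL_004757 was at 142, 900, 93.7 and 590.5 CPM, with 12185 reads there and 13 in the others, 10 of which had 0. HEL_014430, named for the tie after its values were seen, was at 64.6, 120.5, 58.2 and 97.0 CPM, with 0 reads in the 10 libraries of himera numbers 2 and 3 and lativitta and up to 3.28 CPM in the number 1 libraries. In the whole list 11 IDs were at 0 in at least 7 of the 14 libraries and 35 were read in all 14. Intervals and floors of this kind cover counting error only.

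The level reached outside the 4 libraries differed between IDs and between sets of libraries. For each ID the mean unscaled CPM of a set was expressed as a percentage of its mean in petiverana numbers 2 and 3, and scaling the libraries shifts these percentages. The median over the 75 IDs was 2.81% in himera number 1 (range 0 to 20.9%), 0.877% in petiverana number 1 (0 to 20.2%) and 0.233% in the other 10 libraries (0 to 14.9%). The highest of the 14 values was in a himera number 1 library for 40 IDs, in petiverana number 1 for 12, in lativitta for 11 and in himera numbers 2 and 3 for 12. The percentages that follow split the list by cut-offs chosen after the values were seen.

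For 16 IDs, himera number 1 reached at least 10% of the level in petiverana numbers 2 and 3, with a median of 14.4%. For 7 of them both petiverana number 1 and the other 10 libraries were under 1%. HEL_008904, HEL_011505 and HEL_010003 were at 14.6%, 15.9% and 15.3% in himera number 1, and HEL_003147 at 3.23%. Petiverana number 1 reached at least 10% for 6 IDs, of which 3 were among the 16. For 13 IDs all 3 sets were under 1%, and these included the 4 IDs with the largest ratios.

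Both himera number 1 libraries had X at least 4 times that of each of the 10 libraries of himera numbers 2 and 3 and lativitta for 22 of the 75 IDs, against 2.65% of all IDs. Both petiverana number 1 libraries did so for 7, against 2.35% of all IDs. The 2 sets shared 6 of these IDs, and for 52 neither number 1 set stood out in this way. The rule used these libraries as its comparison, so the counts are a description. Without both himera number 1 libraries 158 IDs would have met the rule, and 87 without both petiverana number 1 libraries.

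**Figure D3:**
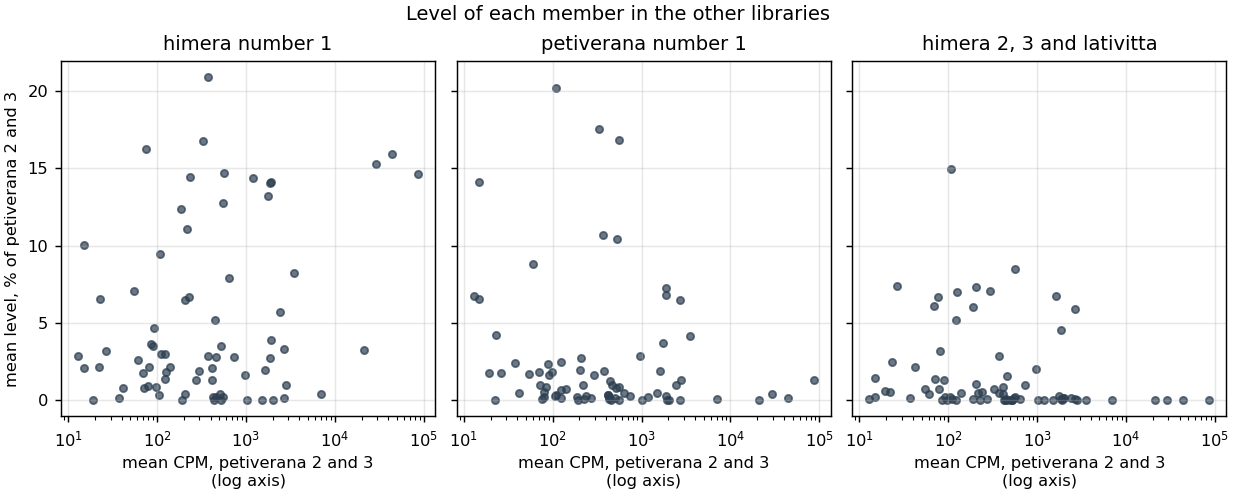
Mean level of each of the 75 IDs in himera number 1, in petiverana number 1 and in the other 10 libraries, in percent of its mean in petiverana numbers 2 and 3 (y), against that mean in CPM on a log axis (x). Himera number 1 reaches at least 10% for 16 IDs, among them the 3 with the most reads, while petiverana number 1 reaches it for 6.

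In 12 IDs the other 10 libraries kept at least 5% of the level in petiverana numbers 2 and 3 in unscaled CPM. With TMM scaling 5 of the 12, HEL_001647, HEL_001648 and HEL_001650 to HEL_001652, were at 3.13% to 3.799%. In unscaled CPM HEL_013854 was at 3023, 2654, 2464 and 2585 in petiverana HW 2, HW 3, FW 2 and FW 3, and at 109 to 210 in the other 10 libraries. It was at 89.5 and 88.0 CPM in himera HW 1 and FW 1 and at 164 and 183 in petiverana HW 1 and FW 1. This ID was thus read in every library, and the 4 libraries stood above all others. How level the other 14 libraries are depends on scaling, as TMM factors ran from 0.522 in petiverana HW 1 to 1.63 in lativitta FW 2. HEL_013854 was named after its values were seen, as the most read of the 12.

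The IDs next to the thresholds were as follows. HEL_006658, the last inside, was at 115, 102, 106 and 111 CPM in petiverana HW 2, HW 3, FW 2 and FW 3 and reached 24.0 in petiverana HW 1, a ratio of 4.11. HEL_008228 was at 402, 347, 391 and 337 CPM and reached 80.8 in himera FW 1, a ratio of 4.14. Just outside were HEL_001649, with a ratio of 3.98 (33.7, 10.8, 24.97 and 13.9 CPM, and at most 1.96 elsewhere), and HEL_009104, with a ratio of 3.86 (103, 84.3, 88.8 and 66.0 CPM, and at most 16.4 elsewhere). A further 8 IDs had a ratio of at least 4 but an X under 10 in at least 1 of the 4 libraries. Values on the 2 sides of the cut-off thus lie close together.

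The same rule was applied to other sets of same-numbered libraries to place the list. Petiverana number 1 alone, as HW and FW together, gave 95 IDs that took 36.4% and 38.5% of its gene reads, and 0 of them were among the 75. Himera number 1 gave 31 IDs with 14.4% and 15.1% of its gene reads, again with 0 shared. Himera numbers 2 and 3 gave 4 IDs and lativitta numbers 2 and 3 gave 0. A set of 2 libraries passes the rule more easily than a set of 4, so these counts are not ranked. Lists from sets without a common library could not overlap, because the lowest library of a set had to exceed every library outside it. Sets that share libraries with the 4 gave short lists or none. There were 13 IDs for petiverana number 2 alone, 20 for number 3 alone and 5 for numbers 1, 2 and 3 together. Of these, 1, 4 and 1 were among the 75. Petiverana numbers 1 and 2 together gave 0 IDs, as did numbers 1 and 3.

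Numbers 2 and 3 of petiverana did not carry the 75 IDs equally, a contrast the rule did not use. Number 3 was higher than number 2 in both wings for 34 IDs (45.3%), against 40.8% of the other 5028 IDs with X of at least 10 in the 4 libraries. Number 2 was higher in both wings for 30 IDs (40%), against 34.6%. The 2 numbers differed at least 2-fold the same way in both wings for 17 IDs (22.7%), against 4.18%. The highest of the 4 values was a median 1.91 times the lowest, against 1.29 in the other 5028. Neither number was generally higher, but the list spread more between them than other IDs did. The 75 were chosen for a gap of at least 4-fold in X between petiverana libraries and the 5028 were not, so the sets are not like for like. Each number has 1 library per wing, so no test was made.

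HEL_014104 and HEL_005548 marked the ends of this spread. HEL_014104 was at 3042 CPM in HW 3 and 2324 in FW 3, against 407 in HW 2 and 254 in FW 2, so number 3 was 8.12 times number 2. HEL_005548 was at 41.2 CPM in HW 3 and 47.9 in FW 3, against 242 in HW 2 and 231 in FW 2, so number 2 was 5.31 times number 3. In both IDs the numbers did not overlap, which is likely for IDs picked as the ends of this ratio. HW was 1.60 times FW in number 2 and 1.31 times in number 3 for HEL_014104, which was also among the 9 IDs called between wings in the fit on petiverana numbers 2 and 3 described below (log2 0.53 for HW minus FW, SE 0.09, edgeR adjusted p = 0.0303). Of the 17 IDs, 12 were higher in number 3, by 2.11 to 8.12 times, and 5 in number 2, by 2.25 to 5.31 times. Himera number 1 was under 1% of the level in the 4 libraries for 8 of the 12 and for 1 of the 5. Over the whole list this held for 21 of the 75 IDs. The 1% cut-off was chosen after the values were seen, and the difference between the 12 and the 5 was not tested.

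**Figure D4:**
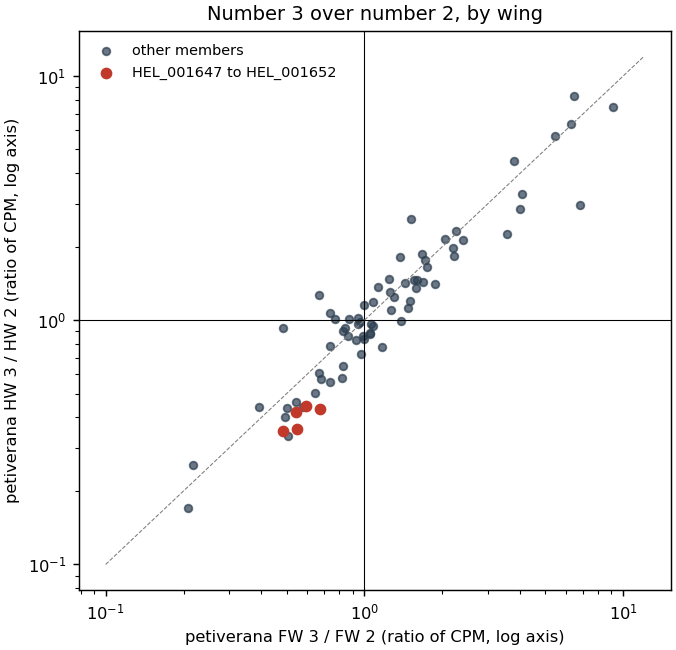
Ratio of CPM in number 3 over number 2 of petiverana for each of the 75 IDs, in FW (x) and HW (y), on log axes. Points follow the dashed line of equal ratios in the wings, with 34 IDs above 1 and 30 below 1 in both wings, and the 5 IDs HEL_001647, HEL_001648 and HEL_001650 to HEL_001652 lie together below 1.

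Several IDs of the list had consecutive numbers. There were 10 pairs of adjacent ID numbers among the 75, and 19 IDs (25.3%) stood in 9 runs of 2 or 3. Whether numbers follow genome order is not given in the sources used here. Of the 127 IDs adjacent to a member that were not members, 11 (8.66%) had a rule ratio of at least 2, against 0.805% of all IDs outside the list. The same rule in petiverana number 1 gave 16 adjacent pairs among 95 IDs, and in himera number 1 it gave 2 among 31.

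The longest stretch ran from HEL_001647 to HEL_001652, in which 5 of 6 IDs were members and the sixth, HEL_001649, missed the threshold at 3.98. This stretch was singled out after the values were seen. HEL_001652 was at 2453 and 1058 CPM in petiverana HW 2 and HW 3 and at 1788 and 1205 in FW 2 and FW 3. It was at 27.5 and 34.1 CPM in petiverana HW 1 and FW 1, 27.5 and 35.3 in himera HW 1 and FW 1, and 84.98 to 135 in the other 10 libraries. HEL_001647 was at 482, 169, 357 and 173 CPM in petiverana HW 2, HW 3, FW 2 and FW 3, 4.45 and 5.27 in petiverana HW 1 and FW 1, 5.56 and 5.62 in himera HW 1 and FW 1, and 16.002 to 25.3 in the other 10. Both lay below the other 10 libraries in each number 1 library of petiverana and himera, as did 4 of the 75 IDs (5.33%) and 36.6% of all IDs in CPM without further scaling. With TMM scaling, chosen here after the data were seen, 2 of the 75 and 8.92% of all IDs did so. In TMM-scaled CPM the gap narrowed, to 44.4 to 55.6 in the number 1 libraries against 56.6 to 91.4 in the other 10 for HEL_001652, and to 8.52 to 8.97 against 10.7 to 18.5 for HEL_001647.

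HEL_001651 was the third member of the stretch below the other 10 libraries in unscaled CPM, while in HEL_001648 and HEL_001650 the number 1 libraries overlapped them. The mean CPM of the 5 members in the 4 libraries ran from 26.5 to 1626. In each of them number 3 was at 0.407 to 0.534 of number 2. The other 10 libraries were at 6.11% to 7.40% of the level in the 4, himera number 1 at 1.77% to 3.20% and petiverana number 1 at 1.65% to 2.47%. With TMM these ranges were 3.13% to 3.799%, 1.99% to 3.62% and 2.06% to 3.10%. The ratio of HW 2 to FW 2 was 1.30 to 1.41 and that of HW 3 to FW 3 was 0.848 to 1.10. Other adjacent members were alike to different degrees. HEL_009921 and HEL_009922 had number 3 at 1.69 and 2.002 times number 2, with himera number 1 at 2.77% and 2.10% of the level in the 4 libraries. HEL_006268 and HEL_006269 had himera number 1 at 16.3% and 12.4% and the other 10 libraries at 6.68% and 6.02%. HEL_005473 and HEL_005474 differed, with number 3 at 0.238 and 0.989 of number 2 and rule ratios of 4.75 and 28.9. HEL_013276 and HEL_013277 differed as well, at a mean of 3504 and 14.9 CPM in the 4 libraries, with petiverana number 1 at 4.12% and 14.1% of that level. These 4 pairs were picked after their values were seen, as examples of likeness and unlikeness.

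IDs that overlap or have near-identical copies may share or lose reads in counting, and whether these IDs do was not analysed here.

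Wings were compared within petiverana, since the rule treated both wings alike. All 75 IDs passed the filter on low counts. In edgeR's quasi-likelihood test of HW against FW on all 18 libraries, 0 of the 75 had an adjusted p under 0.05, and 2 of all 9957 IDs tested did (0.0201%). None of the 75 had an unadjusted p under 0.05 either, against 52 of the 9957, and DESeq2 also called 0 of the 75. The median log2 difference of HW minus FW was 0.18 over the 75 IDs and 0.02 over all tested. The rule itself set a gap of at least 4-fold in X between number 1 and the other numbers within each wing group. The median SE of the 75 was 1.59 on the log2 scale, against 0.097 in the fit on petiverana numbers 2 and 3 described below. A call of a member was thus unlikely in advance, and the 0 calls do not show that the wings are alike.

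The member with the smallest p among those higher in HW was HEL_008436, at 29.0, 27.0 and 0.954 CPM in HW 2, 3 and 1, against 19.5, 16.5 and 0.975 in FW 2, 3 and 1. Its means were 18.98 ± 15.6 CPM in HW and 12.3 ± 9.94 in FW (SD, n = 3 each). The log2 value of HW minus FW was 0.63, with an SE of 1.17 and an edgeR adjusted p of 1. Among those lower in HW it was HEL_005521, at 275, 407 and 1.59 CPM in HW 2, 3 and 1, against 628, 779.5 and 7.02 in FW 2, 3 and 1. Its means were 228 ± 207 CPM in HW and 471 ± 409 in FW (SD, n = 3 each). The log2 value was -1.04, with an SE of 2.10 and an edgeR adjusted p of 1. Both differences were smaller than their SE in this fit, which holds the gap between number 1 and the other numbers and does not pair the wings. HEL_005521 was lower in HW in each of the 3 numbers, and HEL_008436 was higher in HW in numbers 2 and 3 only. Fits that pair the wings by number follow below. Whether the wing difference in petiverana differed from the mean of the other taxa was tested as a separate contrast, which called 0 of the 75, with 0 of them at an unadjusted edgeR p under 0.05 and 0% of the 9957 IDs called.

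Same-numbered wings were the most alike in petiverana, so the wings were also compared with number as a replicate block. In the block fit on all libraries 0 of the 75 had an adjusted p under 0.05 in edgeR, against 3 of the 9957 IDs (0.0301%), and 7 (9.33%) had an unadjusted p under 0.05, against 282 (2.83%). That fit also blocks lativitta, whose numbers 2 and 3 do not pair its wings. On petiverana and himera alone, 0 of the 75 passed the adjusted threshold, against 0.0309% of all IDs tested, and 8 (10.7%) had an unadjusted edgeR p under 0.05, against 466 of 9721 IDs (4.79%). In the block fit on petiverana numbers 2 and 3 alone, which leaves 1 residual degree of freedom, 9 of the 75 (12%) passed, 7 higher and 2 lower in HW, against 1.6% of the 9072 IDs tested. Of the other 5028 IDs with X of at least 10 in these libraries, 71 (1.41%) passed. The 75 were chosen for their levels in these 4 libraries and the 5028 were not, so these shares are not like for like. HEL_004024, HEL_004757, HEL_005527, HEL_008199, HEL_009826, HEL_013279 and HEL_014104 were also among the 12 IDs at least 2-fold higher in number 3 in both wings. The 9 calls rest on 4 libraries and were made in none of the other fits run.

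HEL_005521 and HEL_013279 were the 2 lower IDs of that fit. The log2 difference was -1.07 for HEL_005521 (SE 0.09, edgeR adjusted p = 0.00072). HEL_013279 was at 88.8 and 736 CPM in HW 2 and HW 3, against 161 and 1038 in FW 2 and FW 3, which gave a log2 value of -0.67 (SE 0.10 and edgeR adjusted p = 0.0144). Its numbers differed more than its wings, which are ordered alike in each number.

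Of the 7 higher IDs, HEL_004757 had the smallest p, at a log2 value of 0.60 for HW minus FW (SE 0.08 and edgeR adjusted p = 0.0083), and HEL_008199 the highest difference, 1.19 (SE 0.22, adjusted p = 0.0395). HEL_013279, HEL_004757 and HEL_008199 were named for this contrast after their values were seen. In all 4 named IDs both numbers showed the direction. Without regard to a test, HW was higher than FW in both numbers for 41 of the 75 IDs and FW for 13, against 29.1% and 27.1% of the other 5028. Both HW libraries exceeded both FW libraries in 11 IDs (14.7%), against 10.8%, and both FW exceeded both HW in 4 (5.33%), against 9.09%.

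**Figure D5:**
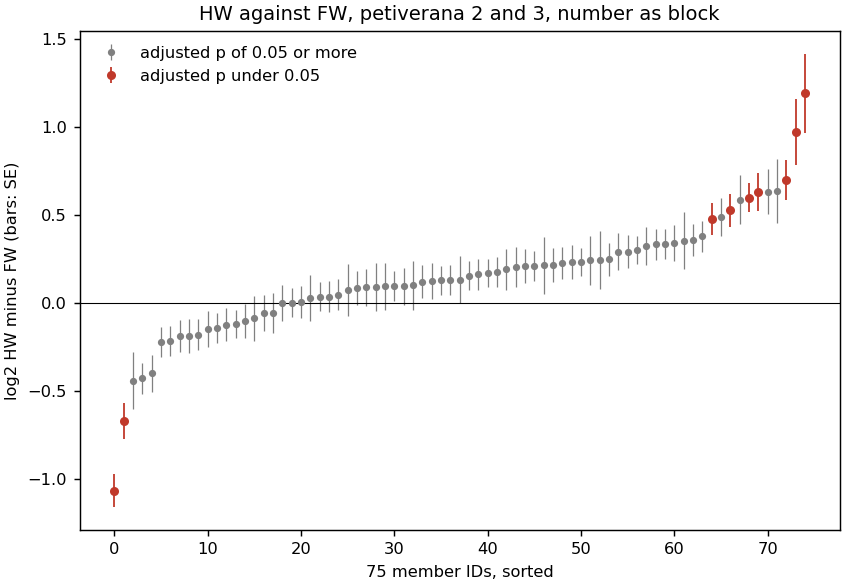
Difference of HW minus FW on the log2 scale for the 75 IDs, sorted, from the fit of petiverana numbers 2 and 3 with number as block. Bars are SE, and the 9 IDs with an edgeR adjusted p under 0.05 (7 higher, 2 lower in HW) are in red.

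The IDs outside the list whose levels followed it most closely were HEL_005833 and HEL_013176. Their Spearman correlations with the mean log2(1 + CPM) of the 75 IDs over 18 libraries were 0.971 and 0.959, the highest of 5028 IDs compared. Their rule ratios were 0.80 and 1.502, so they were high in some of the other 14 libraries too. The points share libraries and depth, and the values are a description.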

How the data were processed

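Poly-A RNA of whole wings was sequenced in 18 libraries, 3 per taxon and wing. The files the authors deposited hold unnormalised counts of reads for each gene ID, with a separate file for every library. The submitters' processing notes list TopHat, bedtools and DESeq2. Versions, build, annotation and strandedness are not given in the sources that were used. The 5 summary rows of each file were left out of library sizes and tests. Reads outside features were 25.8% to 37.2% of all reads counted, multiply aligned reads 22.9% to 28.3%, and ambiguous reads 0.453% to 1.77%. Unaligned reads stood at 0 in every library, so these percentages give no alignment rate. Since every taxon was counted on the same ID list, differences between taxa can include alignment.

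CPM was computed per 1000000 gene reads without further scaling, and the rule was applied to it. Libraries were grouped by title. The wing test used R 4.3.3 and edgeR 4.0.16 (filterByExpr, TMM, glmQLFit, glmQLFTest, 1 mean per group, all 18 libraries), with Benjamini-Hochberg adjustment over the 9957 IDs tested and a threshold of 0.05. DESeq2 1.42.0 was an alternative. SE was derived from the F statistic. The steps were run on simulated counts with planted differences. Those counts held no gap between number 1 and the other numbers, so they do not show how the steps behave with such a gap. Deviations of same-numbered HW and FW libraries from group means correlated at 0.928, 0.853 and 0.868 in petiverana, and at 0.919, 0.869 and 0.850 in himera. HW 2 with FW 3 and HW 3 with FW 2 correlated at 0.397 and 0.290 in petiverana. In himera these 2 values were 0.676 and 0.673. Number 1 lay apart in both taxa, which by itself puts numbers 2 and 3 on the same side of the mean. Same-numbered wings were still the most alike, so numbers were taken as pairs, which the labels do not state. In lativitta same-numbered libraries correlated at 0.597, -0.534 and -0.458, so its numbers 2 and 3 do not pair its wings. There HW 2 correlated with FW 3 at 0.63 and HW 3 with FW 2 at 0.73. Replicates were compared by chi-square over IDs, and each pair differed by more than sampling noise (15.9 or more per degree of freedom).

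The members and lists were chosen with earlier results of these data known. IDs were named by rule: the 4 highest ratios, the 4 next most read, the IDs next to the thresholds, the smallest wing p in each direction, the ends of the number 3 to number 2 ratio, the 2 highest outside and the 2 at 0 in most libraries (ties by mean CPM). Gene names, and the preset gene lists that need them, were not used here.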

Additional observations from a re-analysis of the deposited data

How the results depend on the processing

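The count of 75 IDs meeting the rule was 75 to 84 without any 1 of the 18 libraries. Leaving a library out can only raise an ID's ratio or leave it unchanged, so no ID could drop out in these runs. It was 84 with TMM-scaled CPM and 83 with median-of-ratios scaling, with 69 of the 75 kept in each. TMM moved the median difference of all 9957 IDs between the 4 libraries and the others from -0.69 to -0.09 on the log2 scale, and that of the 75 from 5.51 to 5.57, so the list's excess over all IDs was 6.20 or 5.67. The count was 144 at 2-fold, 40 at 8-fold, 63 with 5 added to CPM, 57 at a floor of 50, and 158 without both himera number 1 libraries. The mean summed CPM in the 4 libraries was 232920, against 323653 with TMM and 326048 with median-of-ratios factors.

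For HW against FW in petiverana, 0 of the 75 IDs were called in the test reported and in 15 of 16 alternatives. The exception was the replicate block on petiverana numbers 2 and 3, with 9, where all IDs called were 145 against 2. In unpaired fits that include petiverana number 1, the gap set by the rule made calls of members unlikely in advance. With petiverana number 1 left out of both wings, the median SE of the 75 was still 1.19 on the log2 scale. It was 0.48 with himera number 1 left out as well. The 0 calls of members in these fits do not show that the wings are alike either. The block on all libraries or on petiverana and himera gave 3 IDs in all and changed no other call of the 75. All IDs called were 0 with petiverana libraries only and with petiverana number 1 left out of both wings, and 0 to 2 without any 1 petiverana library (0 without FW 1 or FW 2, 1 without FW 3). The fits with the block on petiverana and himera, and without number 1, were chosen after seeing the data. Leaving out any 1 petiverana library moved the difference of HEL_008436 between 0.10 and 1.17 and that of HEL_005521 between -1.73 and -0.46. Where an ID had few reads outside the 4 libraries, depth limits how low its level can be stated.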
